A study of Mus musculus with 6 samples.

Results

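Transcripts of 9 genes that carry chloride, sodium, potassium, sulfate and butyrate across the colonic epithelium were followed in crypts of mouse colon. All probe sets annotated to exactly 1 of the symbols Slc26a2, Slc26a3, Slc5a8, Slc16a1, Scnn1a, Scnn1b, Scnn1g, Cftr and Kcnq1 were taken, which gave 12 of the 22626 probe sets that were not array controls. A probe set is a group of short probes read together as 1 measure of a transcript. Slc26a2, Slc26a3 and Cftr had 2 probe sets each and the other 6 genes had 1.

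Crypts, the glands of the colonic epithelium, were profiled on Affymetrix arrays in 3 groups of 2 arrays. All mice were male and carried 1 copy of Lgr5-lacZ, controls included; in this allele lacZ reports on Lgr5, a receptor of intestinal stem cells. Control crypts came from the distal colons of untreated mice of 6 to 8 weeks, pooled from 2 mice per array. DSS crypts came from 2 pooled mice of the same age given 1% dextran sulfate sodium, a polysaccharide that injures the colonic epithelium, in drinking water for 2 days. Tumor crypts came from 12 pooled adenomas of 2 mice per array, which received azoxymethane (AOM), a colon carcinogen, at 12.5 mg per kg at 6 to 8 weeks of age and then cycles of 2%, 1.5% and 1.0% DSS, and they were taken 90 days after AOM. Tumor mice were therefore older than the others at collection, and age, AOM, repeated DSS and adenoma cannot be told apart. Both arrays of a group are labelled as biological replicates.

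The colon absorbs sodium, chloride and the short-chain fatty acids that bacteria make from fibre, and it secretes chloride and potassium when fluid is needed. Absorption belongs mostly to mature cells near the surface and cyclic AMP driven chloride secretion mostly to the crypt. Slc26a3 exchanges luminal chloride for bicarbonate, and its loss in humans causes congenital chloride diarrhoea. Slc26a2 takes up sulfate, which cells need to sulfate mucins and proteoglycans. Slc5a8, coupled to sodium, and Slc16a1, coupled to protons, carry butyrate and other monocarboxylates. Scnn1a, Scnn1b and Scnn1g encode the 3 subunits of the epithelial sodium channel that aldosterone induces. Cftr is the apical chloride channel opened by cyclic AMP, and Kcnq1 is a basolateral potassium channel that sustains chloride secretion.

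Median intensities of the arrays lay between 94.2 and 131, and 2 arrays per group limit the precision. Pearson's r of log2 intensities across the 7456 tested genes (genes are no independent replicates) was 0.971, 0.978 and 0.959 within the control, DSS and tumor groups. Epcam, an epithelial adhesion gene that checks the labelled tissue, had intensities of 12936 and 12682 in control, 14732 and 12534 in DSS and 12781 and 11358 in tumor crypts, so the groups overlapped. The log2 ratio of the 3' to the 5' probe set of actin, a sign of RNA quality, was 0.95 and 1.04 in tumor crypts against 1.20 to 1.63 elsewhere; its part in the tumor results was not tested. In such bulk samples, fewer cells of a type and less RNA per cell cannot be told apart.

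Promoter sequences are shown for the members that were lower in tumor crypts, since 5 of these 6 genes had an entry in the table of promoters used. They are the 250 bases before the transcript start that the table gives, 5′ to 3′ on the gene's strand, from RefSeq on GRCm38.p6, and 6 of the 9 members were matched by symbol (the other matched gene was Scnn1b). The start is the gene's outermost annotated start for Slc5a8, Slc16a1 and Cftr, but it lies 5077 bases inside the annotated gene for Slc26a3 and 59 bases inside it for Scnn1g, and the table does not say which transcript begins there. Capitals mark matches, on either strand, to 9 motifs that were chosen with the sequences in view. The letters searched were TATAAA for the TATA box, GGGCGG for the GC box, CCAAT for the CAAT box, CACGTG for the E-box of Myc and USF, GTTAAT for the HNF1 half-site, CAAAGNNCA for the HNF4 site, TTTATG for the CDX site, CTTTGAT for the TCF site and AGAACA for the steroid receptor half-site.
Slc26a3, chr12:31437969-31438218, + strand: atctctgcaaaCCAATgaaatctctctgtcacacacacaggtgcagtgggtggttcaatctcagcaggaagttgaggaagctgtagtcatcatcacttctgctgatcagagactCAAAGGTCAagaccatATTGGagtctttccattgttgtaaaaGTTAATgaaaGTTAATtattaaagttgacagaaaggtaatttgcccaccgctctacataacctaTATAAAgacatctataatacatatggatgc
Slc5a8, chr10:88885742-88885991, + strand: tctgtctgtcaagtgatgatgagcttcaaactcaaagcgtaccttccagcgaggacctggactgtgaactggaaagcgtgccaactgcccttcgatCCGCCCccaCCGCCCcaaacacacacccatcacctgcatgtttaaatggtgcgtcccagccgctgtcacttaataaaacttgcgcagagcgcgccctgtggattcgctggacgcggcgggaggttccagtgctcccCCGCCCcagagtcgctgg
Slc16a1, chr3:104638414-104638663, + strand: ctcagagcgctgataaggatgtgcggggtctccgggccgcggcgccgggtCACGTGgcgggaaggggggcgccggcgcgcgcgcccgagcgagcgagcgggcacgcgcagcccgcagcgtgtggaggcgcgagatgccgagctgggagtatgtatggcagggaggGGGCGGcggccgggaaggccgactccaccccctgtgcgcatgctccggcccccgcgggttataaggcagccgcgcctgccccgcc
Cftr, chr6:18170437-18170686, + strand: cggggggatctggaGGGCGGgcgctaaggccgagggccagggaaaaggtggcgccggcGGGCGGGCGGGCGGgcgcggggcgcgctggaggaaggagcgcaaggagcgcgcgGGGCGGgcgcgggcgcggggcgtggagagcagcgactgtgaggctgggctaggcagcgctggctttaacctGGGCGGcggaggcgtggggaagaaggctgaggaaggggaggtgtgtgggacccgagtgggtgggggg
Scnn1g, chr7:121734229-121734478, + strand: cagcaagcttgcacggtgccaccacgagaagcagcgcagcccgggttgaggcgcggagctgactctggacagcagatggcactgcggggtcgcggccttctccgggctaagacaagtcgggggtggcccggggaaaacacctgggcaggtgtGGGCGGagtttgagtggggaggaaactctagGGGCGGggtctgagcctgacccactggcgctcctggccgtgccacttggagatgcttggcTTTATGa
The Slc26a3 window was the poorest in G and C of the 5 shown. It lies within the annotated gene, as stated, and was 38.8% G and C with 1 CpG, against 58.8% and 17 CpGs in Slc5a8, 65.2% and 16 in Scnn1g, and 76.4% in both Slc16a1 and Cftr, with 37 and 30 CpGs. The median over all 32851 promoters in the table was 52.4% and 6 CpGs. Slc26a3 held a TATA box 30 bases before that internal start, 2 CAAT boxes, 2 HNF1 half-sites and 1 HNF4 site; HNF1 and HNF4 are transcription factors of gut and liver epithelium. Of all promoter windows of this length 12.4% held the TATA box, 33.8% the CAAT box, 6.43% the HNF1 half-site and 5.49% the HNF4 site. GC boxes stood in the other 4 windows shown, with 6 in Cftr, 3 of them overlapping, 3 in Slc5a8, 2 in Scnn1g and 1 in Slc16a1, and in 32.7% of all promoters. The E-box occurred in Slc16a1 (6.02% of all) and the CDX letters in Scnn1g (10.8% of all). The TCF and steroid receptor letters were in 0 of the 6 matched windows and in 3.21% and 16.1% of all promoters. A match is a description of letters and no measure of binding.

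Intensities are MAS5 signals on a linear scale as deposited. For tests they were taken as log2 of the intensity plus 17.7, and limma was fitted to 7456 genes, each by its brightest probe set above the array median on at least 2 arrays. Adjusted p is Benjamini-Hochberg over these genes, with 0.05 as the threshold for a call. Of the 9 members 8 were tested. Scnn1b was below the median on all 6 arrays, and so was the second probe set of Cftr. Scnn1g passed through the 2 control arrays alone, the group where it was highest, so its entry into the test was not independent of a difference from control.

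**Figure D1:**
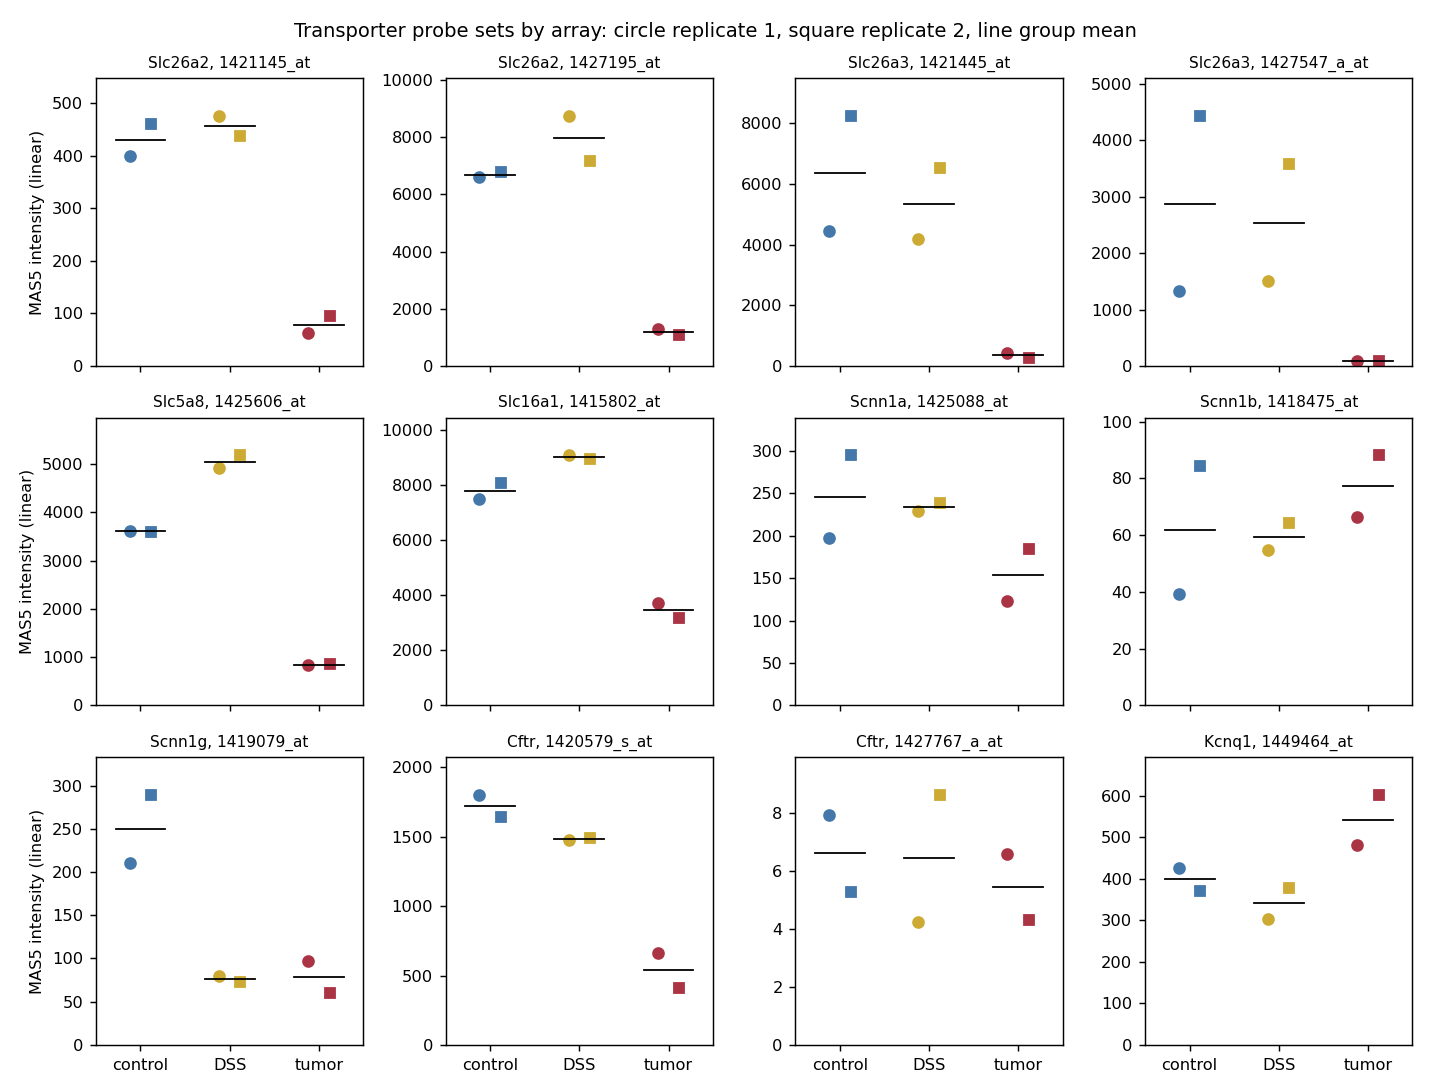
Each panel plots 1 probe set, with MAS5 intensity on a linear axis from 0, the 3 groups on the horizontal axis, circles for replicate 1, squares for replicate 2 and lines for group means. Slc26a2, Slc26a3, Slc5a8, Slc16a1 and Cftr (first probe set) were lowest on both tumor arrays, and Scnn1g was low on both DSS and both tumor arrays.

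Chloride and sulfate exchangers gave the widest differences between tumor and control crypts. Slc26a3 had intensities of 4451 and 8237 in control, 4180.0 and 6517 in DSS and 442 and 269.9 in tumor crypts on its tested probe set (1421445_at). Both tumor arrays lay far below every other array, and the mean was 17.8 times as high in control as in tumor crypts. The log2 change from control to tumor was -4.06 ± 0.35 (SE, n = 2 and 2, limma adjusted p = 0.00024), and only 4 of the 7456 genes had a lower change. Its second probe set (1427547_a_at) read 1323 and 4429.5, 1506 and 3575, and 95.6 and 81.8 in the same order of arrays, a log2 change of -4.52 ± 0.55 (limma adjusted p = 0.00133 when every probe set was tested alone). On the tumor arrays that probe set lay below the array median.

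Slc26a3 also varied between arrays of 1 group. On both probe sets, control and DSS replicate 1 were low and control and DSS replicate 2 were high. Between arrays of the same number, DSS minus control was -0.09 and -0.34 on the log2 scale for the tested probe set, and 0.18 and -0.31 for the second. Summed markers of smooth muscle moved with the replicate number, at 605 and 1085 on control and DSS replicate 1 and 3227 and 3081 on replicate 2, and so did summed T and B cell markers, at 294 and 144 against 2511 and 3201, most of it the immunoglobulin joining chain Jchain. Their part in the Slc26a3 spread was not tested. In DSS crypts the groups overlapped and the change was -0.21 ± 0.35 (limma adjusted p = 0.99991), which became 0.23 without control replicate 2 and 0.11 without DSS replicate 1.

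Slc26a2 had intensities of 6610.3 and 6782 in control, 8745 and 7177 in DSS and 1295 and 1086 in tumor crypts on its tested probe set (1427195_at). The control mean was 5.62 times the tumor mean, and the log2 change was -2.48 ± 0.17 (limma adjusted p = 9.35e-05). The other probe set (1421145_at) was dimmer, with 399 and 459 in control, 475 and 438 in DSS and 62.2 and 95.7 in tumor crypts, and its change was -2.23 ± 0.23 (limma adjusted p = 0.000582 with every probe set alone). On the tumor arrays that probe set lay below the array median, and with no filter its adjusted p was 0.00267 (limma). Thus both probe sets were low on both tumor arrays. DSS arrays lay above the control arrays on the tested probe set and overlapped them on the other, with log2 changes of 0.24 ± 0.17 and 0.09 ± 0.23, neither past the test.

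Both butyrate carriers fell in tumor crypts. Slc5a8 read 3615 and 3600.4 in control, 4919.9 and 5176 in DSS and 835 and 854 in tumor crypts. The groups did not overlap, and the order from high to low was DSS, control, tumor. The tumor mean was 0.234 of the control mean, a log2 change of -2.07 ± 0.14 (limma adjusted p = 0.000106). The DSS mean was 1.40 times the control mean, with a log2 change of 0.48 ± 0.14 and a 95% interval from 0.15 to 0.81. That difference had an unadjusted p of 0.0101, which ranked 46 of 7456, and it did not pass the correction (limma adjusted p = 0.99991).

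Slc16a1 had intensities of 7493 and 8085 in control, 9092 and 8947 in DSS and 3719.6 and 3187 in tumor crypts, again without overlap between any groups. From control to tumor the log2 change was -1.17 ± 0.15 (limma adjusted p = 0.00123) and the control mean was 2.26 times the tumor mean. Even so, Slc16a1 was brighter than at least 95.2% of probe sets on each tumor array. From control to DSS the change was 0.21 ± 0.15 and did not pass (limma adjusted p = 0.99991).

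Subunits of the epithelial sodium channel were dim, and only Scnn1g passed the test in tumor against control crypts; differences between subunits were not tested. Scnn1g read 210.2 and 289 in control, 79.2 and 72.8 in DSS and 97.0 and 60.4 in tumor crypts. Control arrays were above the other 4, and DSS and tumor arrays overlapped. The log2 change was -1.48 ± 0.29 in tumor crypts (limma adjusted p = 0.0094) and -1.50 ± 0.29 in DSS crypts, where only 3 of the 7456 genes had a lower change but the correction was not passed (unadjusted p = 0.000865, limma adjusted p = 0.573). Over all 12393 genes with no filter, entry did not depend on level, and 4 genes had a lower change in DSS crypts. The adjusted p of Scnn1g was then 0.0246 in tumor and 0.999868 in DSS crypts (limma). In tumor crypts the call ended without control replicate 2, at -1.27 and an adjusted p of 0.0831.

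Scnn1a, the subunit needed for channel function, had intensities of 198 and 295 in control, 229 and 239 in DSS and 123 and 184 in tumor crypts. Tumor arrays were the lowest, but the gap to the nearest control array was small. The log2 change of -0.62 ± 0.27 from control did not pass (limma adjusted p = 0.132), and it did pass with quantile normalization (-0.83, adjusted p = 0.0412) and with each array centred on its median (-0.87, adjusted p = 0.0248). Scnn1b was not tested, with 39.2 and 84.4 in control, 54.7 and 64.2 in DSS and 66.3 and 88.1 in tumor crypts. These values exceeded only 38.7% to 47.4% of probe sets on their arrays, and the control arrays spanned nearly the whole range, so no direction can be read at this signal.

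Of the secretory channels, Cftr fell and Kcnq1 did not. Cftr read 1802 and 1639 in control, 1474 and 1491 in DSS and 662 and 410.5 in tumor crypts on its tested probe set (1420579_s_at). The log2 change from control to tumor was -1.69 ± 0.23 (limma adjusted p = 0.00172), and the control mean was 3.21 times the tumor mean. DSS arrays lay just below control arrays, with a change of -0.21 ± 0.23 (limma adjusted p = 0.99991). The second Cftr probe set (1427767_a_at) had intensities of 4.23 to 8.62 in all groups, near the floor of the arrays, and carries no information on direction.

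Kcnq1 had intensities of 426 and 371 in control, 303 and 378 in DSS and 482 and 602 in tumor crypts. Both tumor arrays were the highest, unlike for any other tested member. From control the log2 change was 0.42 ± 0.20 with a 95% interval from -0.04 to 0.88 (limma adjusted p = 0.171), and from DSS it was 0.64 ± 0.20 (limma adjusted p = 0.0478). The latter call ended in 11 of 17 alternatives, with adjusted p from 0.0122 to 0.286, and the change was 0.41 with arrays centred on their median.

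**Figure D2:**
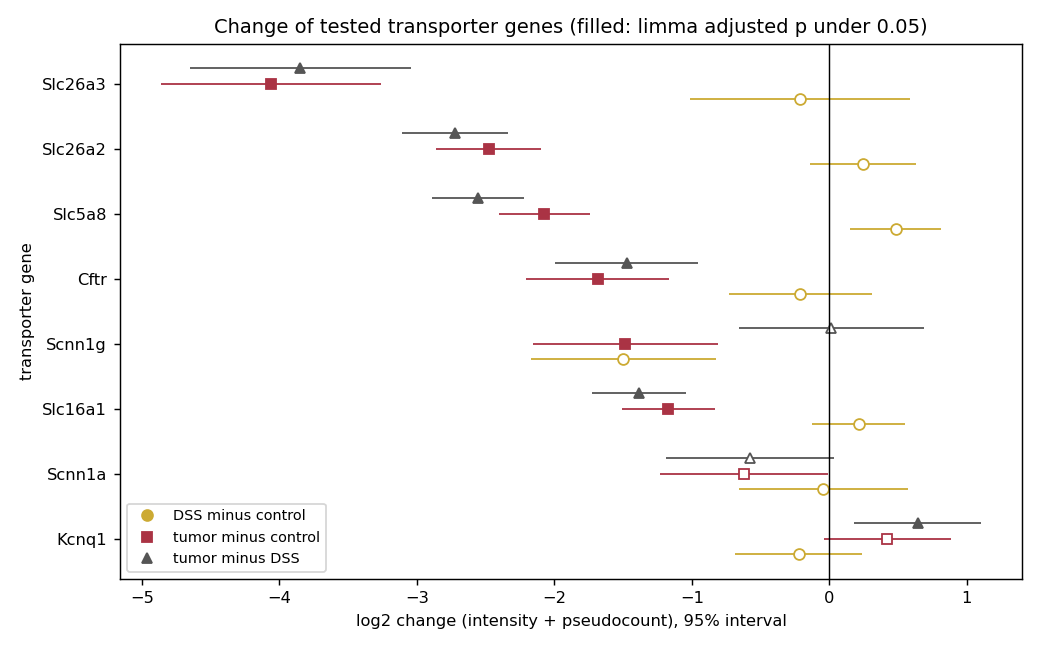
The plot gives the log2 change of the 8 tested transporter genes on the horizontal axis for DSS minus control (circles), tumor minus control (squares) and tumor minus DSS (triangles), with bars for 95% intervals and filled symbols for limma adjusted p under 0.05. Slc26a3 lies farthest to the left at -4.06 and -3.85, and no DSS minus control symbol is filled.

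Read together for tumor against control, 6 of the 8 tested members were lower and 0 were higher. Over all genes tested 22.6% were called in that comparison, 9.75% lower and 12.9% higher. The member counts here include Scnn1g, which entered the test through the control arrays alone, where it was highest. With no filter Scnn1g was still called lower in tumor crypts (limma adjusted p = 0.0246). The groups did not overlap in any of the 8, with 7 lower and 1 higher, where 61.5% of all genes did not overlap (27.7% lower and 33.8% higher). In order of size the falls were those of Slc26a3, Slc26a2, Slc5a8, Cftr, Scnn1g and Slc16a1. The 95% interval of Slc26a3, from -4.86 to -3.26, did not reach that of Slc26a2, from -2.86 to -2.09, whereas every later neighbour in the order overlapped the one before it. The median log2 change was -1.58 over the 8 members and 0.05 over all genes. Centring each array on its median moved that median of all genes to -0.20 and the calls of all genes from 959 higher and 727 lower to 649 and 1225, while 7 of the 8 members were then lower.

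In tumor against DSS crypts, 5 of 8 tested members were lower and 1, Kcnq1, was higher, against 11.3% and 14.9% of all genes (26.2% in all). The groups did not overlap in 7, with 6 lower and 1 higher, against 66% of all genes (30.7% lower and 35.3% higher). Slc5a8 had a log2 change of -2.55 ± 0.14 (limma adjusted p = 4.28e-05), Slc26a2 of -2.72 ± 0.17, Slc26a3 of -3.85 ± 0.35, Cftr of -1.47 ± 0.23 and Slc16a1 of -1.38 ± 0.15. Scnn1g stood at 0.01 ± 0.29, with a 95% interval from -0.66 to 0.69 (limma adjusted p = 0.977), so a difference of 0.69 between DSS and tumor crypts lies within it. Scnn1a, at -0.58 ± 0.27, passed only with quantile normalization (adjusted p = 0.0495) and median centring (adjusted p = 0.0312). All these comparisons share arrays: the DSS and the tumor comparison use the same controls, and this one uses the same DSS and tumor arrays again.

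In DSS against control crypts 0 of 8 members passed limma, as did 0% of all genes, and 187 genes (2.51%) had an unadjusted p under 0.05, among them Scnn1g and Slc5a8. The groups did not overlap in 5 members, higher for Slc26a2, Slc5a8 and Slc16a1 and lower for Scnn1g and Cftr, where 26.5% of all genes did not overlap (12.8% higher and 13.7% lower). Of these, Scnn1g entered the test through the control arrays alone.

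Other genes of colonic electrolyte, butyrate and sulfate handling were read from 6 lists of 88 genes, of which 72 had a probe set of their own and 52 were tested. In tumor against control crypts 24 of the 52 (46.2%) were lower and 4 (7.69%) higher, with a median log2 change of -0.56, against 9.75% lower, 12.9% higher and a median of 0.05 over all genes tested. The counts for single lists below stand against the same shares. The lists were chosen with earlier results of these data known, so these shares describe the lists and are no independent evidence of their direction. In DSS crypts 0 of the 52 passed limma, as did 0% of all genes, and 3 had an unadjusted p under 0.05, as did 2.51% of all genes.

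Around the anion exchangers, 2 of 3 tested genes fell in tumor crypts. Slc4a4, a sodium bicarbonate cotransporter, measured 457 ± 187 in control and 127 ± 2.67 in tumor crypts (mean ± SD over both arrays). Its log2 change was -1.65 ± 0.27 (limma adjusted p = 0.00452), and -1.17 as the mean over its probe sets (limma adjusted p = 0.0179). Slc9a3r1, a scaffold that anchors apical transporters, fell by 0.89 on the log2 scale (limma adjusted p = 0.0211), a call that ended without control replicate 2 or tumor replicate 1. Sulfate genes had 7 of 11 lower and 0 higher, with a median of -0.59. Among them the sulfotransferases Sult1a1, from 6640.2 ± 1302 to 793 ± 384, and Sult1b1 had changes of -3.11 ± 0.31 and -1.43 ± 0.25, and Chst4, a sulfotransferase of mucin sugars, of -1.26 ± 0.28. The Chst4 call ended without control replicate 1 or tumor replicate 2.

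Butyrate and monocarboxylate genes had 4 of 7 lower and 0 higher in tumor crypts, with a median of -0.75. The acyl-CoA synthetases Acsm3, from 3203 ± 259 to 719 ± 352, and Acss2, from 2422 ± 29.3 to 938 ± 191, changed by -2.21 ± 0.31 and -1.37 ± 0.19. Ffar2, a receptor for short-chain fatty acids, changed by -0.84 ± 0.25 (limma adjusted p = 0.0423); its call ended in 8 alternatives, all of its leave-one-out fits and the fit with no filter (adjusted p = 0.0867) among them. Ffar2, and Usp2 of the next list, were below the array median on both tumor arrays and passed the level filter through control and DSS arrays, where they were higher. By contrast Bsg, the chaperone that brings Slc16a1 to the membrane, had a change of -0.08 ± 0.15 (chosen after its values were seen). In the sodium absorption list 4 of 13 fell and 1 rose, with a median of -0.42. Usp2, a deubiquitinase, changed by -2.05 ± 0.32 (limma adjusted p = 0.0118 with no filter) and the glucocorticoid-induced gene Tsc22d3 by -1.26 ± 0.19. As means over probe sets these changes were smaller, at -1.49 for Usp2 and -0.63 for Tsc22d3 (limma adjusted p = 0.0081 and 0.0441). Hsd11b2, which shields the aldosterone receptor from glucocorticoids, changed by -0.99 ± 0.15.

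Chloride secretion genes had 4 of 12 lower and 1 higher, with a median of -0.51. Guca2a, the guanylin hormone that drives chloride secretion, went from 9516 ± 458 to 2408 ± 1251, a log2 change of -2.08 ± 0.31, and the chloride channel Clcn2 changed by -1.04 ± 0.16. Prkg2, the cyclic GMP kinase downstream of guanylin's receptor, rose from 67.4 ± 17.5 to 1144 ± 190.5 (3.78 ± 0.55, limma adjusted p = 0.00253). It passed the level filter through the tumor arrays alone, so its entry was tied to that rise. With no filter its adjusted p was 0.00892 (limma). As the mean over its probe sets the Prkg2 change was 3.14 (limma adjusted p = 0.00334). Kcne3, the partner subunit of Kcnq1 (chosen after its values were seen), had a change of -0.76 ± 0.24 (limma adjusted p = 0.0528). Pumps and potassium channels were split, with 3 of 6 lower and 2 higher. The colonic potassium pump Atp12a, from 5367 ± 1988 to 1170.0 ± 594, and the potassium channel Kcnk5 changed by -2.23 ± 0.39 and -1.43 ± 0.17, and Fxyd3, a regulator of the sodium pump, by 0.93 ± 0.15. The rise of Fxyd3 did not pass with arrays centred on their median (0.68, adjusted p = 0.0526).

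Against DSS crypts, the genes that the naming rule gave from these lists were Slc4a4 at -1.62, Usp2 at -2.25, Hsd11b2 at -1.36, Acsm3 at -2.30, Acss2 at -1.61, Prkg2 at 4.53, Guca2a at -1.84, Atp12a at -2.02, Kcnk5 at -1.75, Sult1a1 at -3.33 and Sult1b1 at -1.21 (log2 changes, each past the test). Prkg2 entered through the tumor arrays alone and read 7.47 and 81.4 in DSS crypts. With no filter its adjusted p was 0.0039 (limma). As means over probe sets, Slc4a4 changed by -1.33 and Usp2 by -1.68. The Sult1b1 call ended without DSS replicate 1 (-1.20, limma adjusted p = 0.051). In DSS against control crypts the gene of smallest p in each list was Slc9a3r1 at -0.31, Sgk1 at -0.75, Slc16a6 at -0.51, Adcy6 at 0.41, Kcnk5 at 0.33 and Chst4 at -0.59, none past the test. Sgk1, the aldosterone-induced kinase that keeps sodium channels at the membrane, had 1444 and 2270.2 in control against 998 and 1139 in DSS crypts, without overlap (unadjusted p = 0.0143, limma adjusted p = 0.99991).

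**Figure D3:**
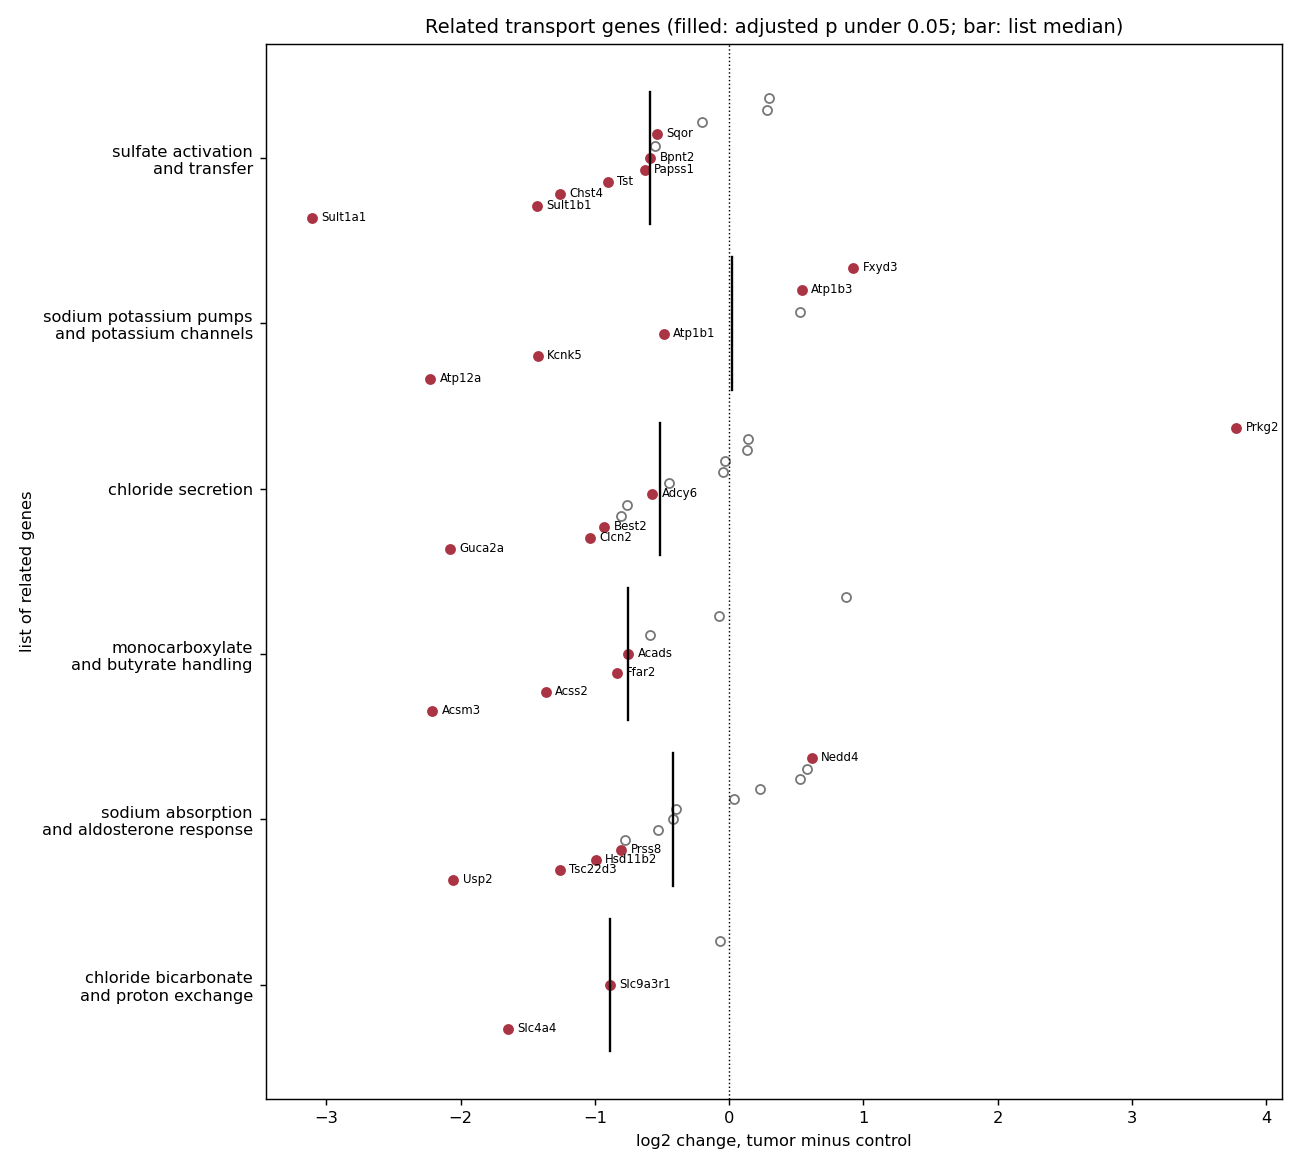
Each point is 1 tested gene of 6 lists of related transport genes, placed by its log2 change in tumor minus control crypts, filled and named where limma's adjusted p was under 0.05, with a bar at the list median. Filled points lie to the left of 0 for 24 genes and to the right for 4, of which Prkg2 is farthest at 3.78.

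Genes whose log2 values over the 6 arrays ran most like a member's were picked by Pearson's r. The arrays fall into tumor and other arrays, so a high r is shared by the many genes that differ there, and it is given as a description. For Slc26a3 they were Khk (r = 0.9996), Slc6a14 (0.998) and Mep1a (0.997), and for Slc26a2 Nmnat3 (0.9998), Abcb1a (0.9995) and Selenbp1 (0.999). Slc5a8 was most like Map2k6, Slc6a4 and Kcnk5 (0.998, 0.997 and 0.997), and Slc16a1 most like Ush1c, Vkorc1 and Selenom (0.998, 0.997 and 0.997). Cftr ran closest to Mtfp1, Ccl28 and Me2 (each 0.999), Kcnq1 to Cry1, Tle3 and Cep68 (0.997, 0.996 and 0.995). For the sodium channel subunits r was lower, with Zfp612, Pla2g4f and Msrb1 for Scnn1a (0.991, 0.984 and 0.982) and Taf7, Csnk2a1 and Hccs for Scnn1g (0.970, 0.969 and 0.964). Among the members themselves, r was 0.92 to 0.99 between any pair of Slc26a2, Slc26a3, Slc5a8, Slc16a1 and Cftr, and 0.31 to 0.59 between Scnn1g and these 5.

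Markers of other cell states and types moved with the tumor group as well. Counts of markers called here are for tumor against control crypts. Over all genes tested 9.75% were called lower and 12.9% higher in that comparison. Summed intensities of 11 surface colonocyte markers were 63478 and 69793 in control, 56787 and 59217 in DSS and 30222 and 23746 in tumor crypts, with 8 of 11 lower in tumor crypts by limma (median log2 change -2.08). Guca2a and Sult1a1 are in that list too. Those of 7 crypt base markers were 4918 and 4599.8, 3048 and 3924, and 13207 and 13986, with 6 of 7 higher. Enteroendocrine markers had 6 of 6 and goblet markers 5 of 7 lower in tumor crypts, whereas 8 epithelial markers summed to 80968 to 87582 in tumor against 86054 to 90451 in control crypts. None of the markers was at 0 on any array. The sums of 7 macrophage markers were 5214 and 9610 on the tumor arrays against 1883 and 2375 on the control arrays, with 2 of 5 tested genes higher. Most of the tumor sums came from Lyz2 (2755 and 5154) and Cd14 (2020 and 2645), named after their values were seen. On tumor replicate 1, Csf1r, Adgre1, C1qa and C1qb lay within the range of the control arrays, and Cd68 lay above it. On tumor replicate 2 each of these genes lay above both control arrays. There Csf1r read 717 (control 71.4 and 170), Adgre1 141 (29.2 and 90.7) and C1qa 502 (26.6 and 160). C1qb read 306 (46.2 and 194) and Cd68 144 (22.6 and 28.9). The sums of 6 neutrophil markers were 1077 and 11557 against 70.9 and 127, with 2 of 2 tested genes higher. Most of these tumor sums came from those 2 genes, S100a8 (698 and 6638) and S100a9 (281 and 4555). Cxcr2, a defining receptor, was under the 25th percentile on every array. The other neutrophil markers were not tested. Mmp9 read 40.8 and 208 in tumor against 3.47 and 7.5 in control crypts. Csf3r read 42.0 and 127 against 45.2 and 71.1, and Elane 12.4 and 7.08 against 6.82 and 11.5. Tumor replicate 2 was the higher of the tumor arrays in the macrophage and neutrophil sums. The same held for fibroblast (5776 against 867), smooth muscle (1057 against 353) and T and B cell sums (1805 against 193). It also held for endothelial (783 against 233) and enteric neuron and glia sums (132 against 43.2). Epithelial, surface colonocyte, goblet and enteroendocrine sums were lower on tumor replicate 2. On the tested probe sets tumor replicate 2 was the lower of the tumor arrays for Slc26a2, Slc26a3, Slc16a1, Cftr and Scnn1g. It was the higher for Slc5a8, Scnn1a and Kcnq1, and on the other probe set of Slc26a2 (95.7 against 62.2). The part of these shifts in cell make-up in the transporter falls was not tested.

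**Figure D4:**
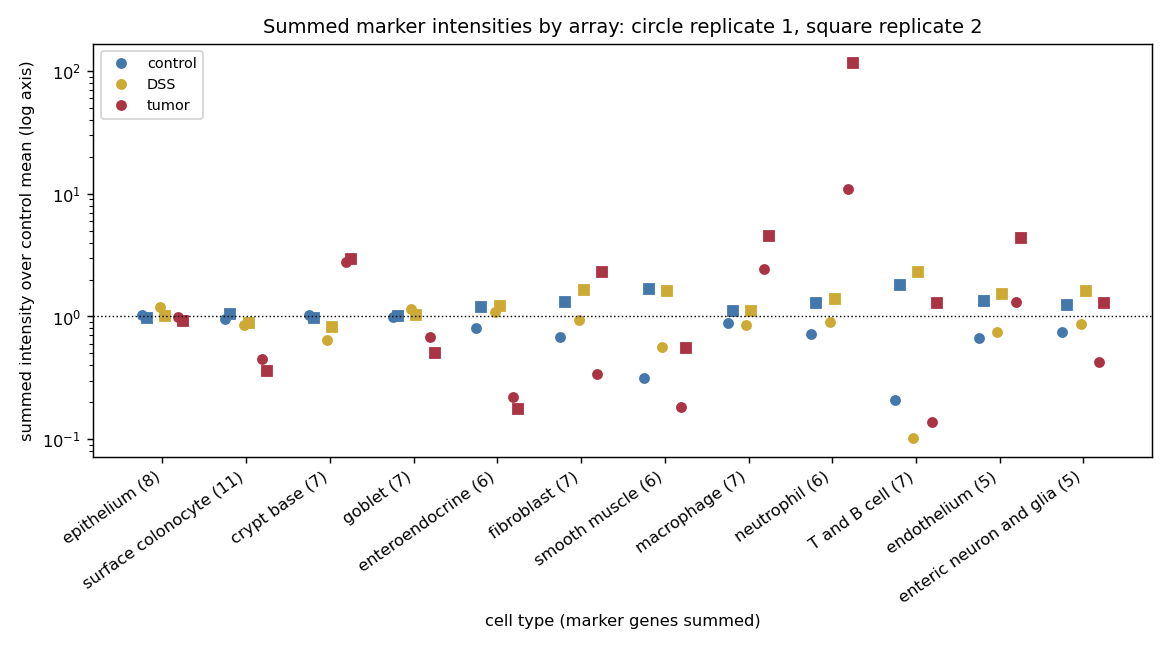
For each cell type on the horizontal axis, with its number of marker genes in brackets, the plot gives the summed intensity on each array divided by the control mean on a log axis, with circles for replicate 1 and squares for replicate 2. Epithelial sums stay near 1, and tumor arrays lie below 1 for surface colonocyte and enteroendocrine markers and above 1 for crypt base, macrophage and neutrophil markers.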

How the data were processed

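RNA of 6 arrays (3 groups of 2) was read from 1 deposited table, which gives an unlogged MAS5 intensity for each probe set. MAS5 is named per the submitters' processing notes; its version, and the scaling used, are not given in the sources used here. Array means, trimmed by 2% at each end, were all near 499.9. The table held 22690 probe sets: 64 controls, 20380 with 1 gene symbol, 691 with several and 1555 with none, by the platform's annotation. Nothing was normalized further.

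Intensities were taken as log2 (intensity + 17.7, the 25th percentile), since the deposited values are linear. After a filter that asked 2 or more arrays to exceed the array median (11194 probe sets), the brightest per gene was used (7456 genes), and limma 3.58.1 (R 4.3.3) was fitted to all groups with an intensity trend; tests were 2-sided. Folds are ratios of mean intensities. Fold changes on the log2 scale understate those of dim genes. The pipeline was tested on simulated data. Members and lists were chosen with earlier results of these data known. Named were all members, up to 3 called genes per list (2 against DSS) or the 1 of smallest p, Epcam and the 3 genes most like each member; any other is marked as such where it stands. Alternatives (17 planned, 1 added) covered normalization, pseudocount, filter, probe sets, trend, 2-group fits, the replicate block and each array left out. The 7456 genes were held fixed when arrays were left out, and a lone array was assumed to vary like the other groups. Figures used Python 3.11.15 and matplotlib 3.10.9.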

Additional observations from a re-analysis of the deposited data

How the results depend on the processing

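Calls of Slc26a2, Slc26a3, Slc5a8, Slc16a1 and Cftr against both control and DSS were kept, with their direction, in all 18 alternatives; the log2 change from control ranged from -4.50 to -3.62 for Slc26a3 and from -1.42 to -1.06 for Slc16a1. In DSS against control crypts, with arrays left out in turn, the change ranged from -0.66 to 0.23 for Slc26a3 and from -0.31 to 0.22 for Scnn1a; the cause was not tested. Scnn1g in tumor against DSS crypts turned to -0.22 with quantile normalization and -0.22 with median centring, and ranged from -0.26 to 0.29 with arrays left out. Genes called in DSS against control were 0 to 2 with an array left out. Genes called in tumor against control were 1103 with the 75th percentile filter, which tests 4160 genes, and 853 with control replicate 2 and 961 with tumor replicate 2 left out, up to 1753. In tumor against DSS they were 1262 with that filter and 900 to 1921 with an array left out, the lowest without DSS replicate 1. Deviations of same-numbered arrays correlated at 0.45 between control and DSS, 0.08 between control and tumor and 0.44 between DSS and tumor across genes, and the labels do not say what a number marks. With the replicate block in the 3-group fit, calls were 0, 1945 and 2210 against 0, 1686 and 1952, and member calls were 0, 6 and 6, as without it. With the replicate block in 2-group fits, added after the data were seen and with 1 residual degree of freedom per gene, calls were 121 for DSS against control (1 member, Scnn1g, limma adjusted p = 1.09e-07, and the related Sgk1, 0.00023) and 2942 for tumor against DSS. The p-values of those 2-group block fits rest mainly on a spread shared over genes and do not measure a gene's own replicate spread. Between same-numbered arrays, DSS minus control for Scnn1g was -1.23 and -1.76 on the log2 scale. Signal near background limits Scnn1b, the second Cftr probe set and, in DSS and tumor crypts, Scnn1g.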
